A study of Rattus norvegicus with 4 samples.

Results

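The second step of a warming time course, day 6 against day 3 at 37 °C, was described in ROE2, a rat oral epithelial line. It took 2 of the 4 arrays of the series, the day 6 value minus the day 3 value on the log2 scale, for every gene. Of 14218 genes with a named probe set, the 8802 (61.9%) that reached a log2 value of 6 on at least 1 of the 4 arrays were kept. A gene was read from its probe set, the group of probes that reports a transcript, with the highest mean over the 4 arrays. A gene counted as higher or lower when its log2 values on both days were at least 1 apart, which is 2-fold. ROE2 is 1 immortalized line from fetal tongue, taken at 18 days, of a transgenic Wistar rat. Cells of all groups carry the large T antigen of SV40 in a temperature-sensitive form, a viral oncoprotein that keeps them dividing at the lower temperature and is inactivated by warming. Cells in DMEM/F12 with 2% fetal bovine serum, 1% ITES (insulin, transferrin, ethanolamine and selenite) and 10 ng/ml EGF grew on collagen type I at 33 °C for 24 h. They were then kept at 37 °C for 0 days (the control), 3 days, 6 days or 9 days. Each day had 1 array, so differences have no replicate check and no p-value, and the day cannot be told apart from the array. In a culture read in bulk, fewer cells of a type and less RNA per cell cannot be told apart.

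The lining of the tongue is a stratified epithelium. Basal cells divide on a basement membrane and hold keratins of the Krt5 and Krt14 pair. As cells leave that layer they stop dividing, make suprabasal keratins, reinforce their desmosomes and assemble a cornified envelope of cross-linked proteins coated with lipid. EGF, which was in the medium throughout, drives division and migration of such cells through the ERK kinases.

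The identity markers were set against the labelled cell type: all 14 measured genes of stratified epithelium were above the brightest bacterial control on both arrays. That control, the highest of 27 probe sets for bacterial transcripts, read 4.36 on day 3 and 4.51 on day 6. Genes that define other cell types were mostly at background, apart from those of nerve and glia. Of 15 fibroblast markers, 3 were above the control on both days, and Col1a1, Col1a2, Col3a1, Dcn and Lum were below it. The 1 fibroblast marker that reached the floor of 6 had a day 6 minus day 3 difference of 0.19. Of 8 endothelial markers 1 was above it, of 11 skeletal muscle markers 4, of 9 nerve and glia markers 6, of 6 salivary and mucous markers 1 and of 7 melanocyte and Merkel cell markers 3. Of 13 leukocyte markers, 4 were above it on day 3 and 5 on day 6, while Ptprc, the common leukocyte antigen, read 2.89 on day 3 and 2.87 on day 6. The hybridisation spike-ins, added RNAs of known amount, were higher on day 6 in 18 of 18 probe sets, by a median of 0.26 (range 0.11 to 0.35). The 2 arrays also differed at the 5' end of beta-actin. Its 3' value exceeded its 5' value by 2.44 on day 3 and by 1.22 on day 6, against 2.25 on day 0 and 2.35 on day 9. For GAPDH the same gap was 0.04 on day 3 and -0.02 on day 6, and for hexokinase 1.48 and 1.45. Whether this gap bears on the differences described here was not tested.

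**Figure D1:**
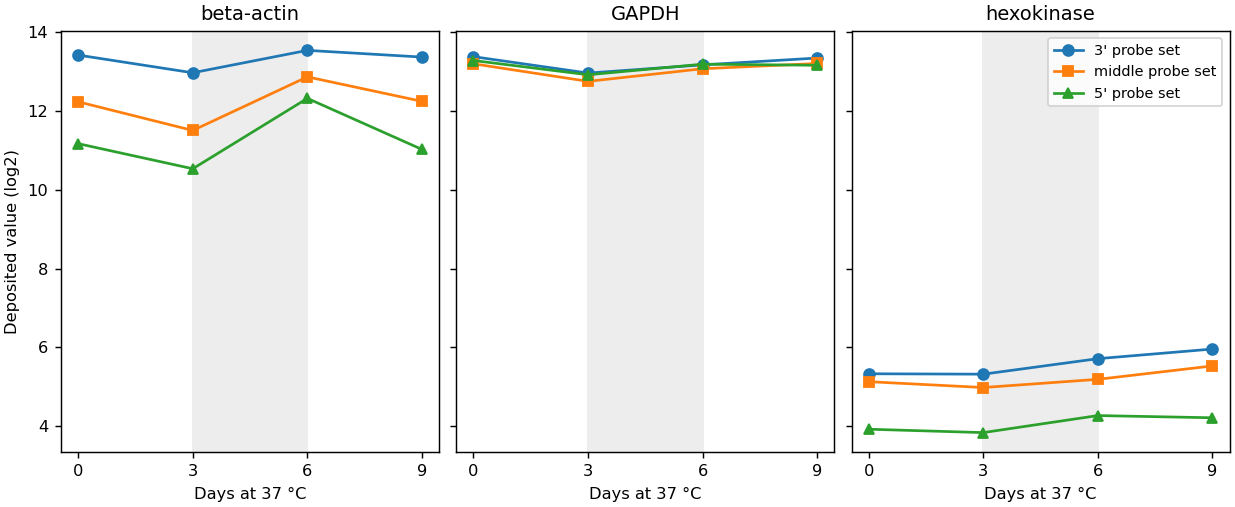
Deposited log2 values (vertical axis) of probe sets at the 3' end, middle and 5' end of beta-actin, GAPDH and hexokinase against days at 37 °C (horizontal axis), 1 array per day, with the span from day 3 to day 6 shaded. The 3 beta-actin lines lie closest together on day 6, where the 3' value exceeds the 5' value by 1.22, against 2.25 to 2.44 on the other days; the GAPDH and hexokinase lines keep their distances on days 3 and 6.

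Few genes parted between day 3 and day 6. Of 8802 genes, 214 (2.43%) were 2-fold or more apart, 73 (0.829%) higher and 141 (1.60%) lower on day 6. By that rule the earlier step, from day 0 to day 3, had 568 such genes (6.45%), and the later step, from day 6 to day 9, had 74 (0.841%). Those steps share the day 3 and day 6 arrays. The median gene differed by -0.13, and the 5th and 95th percentiles were -0.72 and 0.48. Differences of under 1.5-fold held for 7690 genes (87.4%), and 4 genes were 4-fold or more higher and 7 as much lower. Of the 214 genes, 14 were under 6 on both days and 10 were at or below the brightest control on 1 of them. The split between higher and lower turned with the scaling: it was 73 against 141 as deposited, 106 against 88 after centring on the median gene, and 36 against 402 with the arrays centred on the spike-ins. Directions below are therefore on the deposited scale, and a list's median is read beside the median of all genes. A list's counts are read beside the 0.829% higher and 1.60% lower among all genes. With spike-in centring 12 list medians between 0.0029 and 0.21 turned negative, and with median-gene centring 13 between -0.13 and -0.01 turned positive. Krt15, Sprr3, Lgals7, Cebpa, Prss8, Aldh1a1, Junb, Kcnj12 and Smc4 were between 0.75 and 0.98 with spike-in centring, and so under 2-fold there. With median-gene centring 8 named lower genes fell under 2-fold, and 5 named genes passed it. The 8 were Spry2, Slc7a5, Fn1, Bnip3, Ero1a, Bhlhe41, Arg1 and Pdzrn3. Lists below that hold them have fewer lower genes with that scaling. Just inside the threshold lay Scaper at 1.01, Sprr3 at 1.01, Arg1 at -1.0011 and Pdzrn3 at -1.0008. Just outside lay Fgfr1op2 at 0.999, Klk8 at 0.996, Capn2 at -0.996 and Lig4 at -0.995. On the floor of 6, the maxima of Hipk3 (6.0014) and Abi3bp (6.0017) passed and those of Amph (5.9997) and Atp7b (5.9982) did not.

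**Figure D2:**
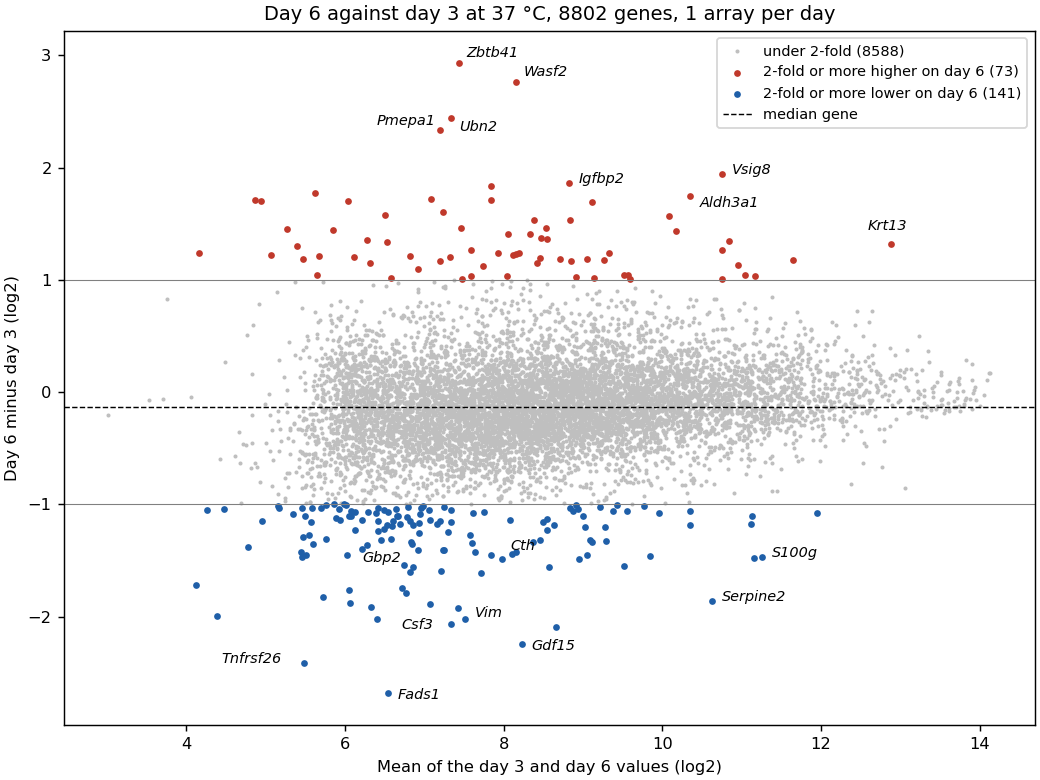
Day 6 minus day 3 (vertical axis, log2) against the mean of the 2 days (horizontal axis, log2) for 8802 genes, 1 array per day, with genes 2-fold or more higher in red (73) and lower in blue (141) and the median gene as a dashed line. The higher genes reach 2.94 (Zbtb41) and the lower genes -2.68 (Fads1), and the dashed line lies at -0.13.

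The largest differences upward mixed epithelial genes with genes of general cell function. Zbtb41, a zinc finger protein, read 6.07, 5.97, 8.90 and 8.81 on days 0, 3, 6 and 9, a day 6 minus day 3 difference of 2.94. Wasf2, an actin-nucleation promoting factor of the WAVE complex, read 7.09, 6.77, 9.53 and 9.43 on days 0, 3, 6 and 9 (2.76). Ubn2, a subunit of a histone chaperone complex, read 6.13, 6.12, 8.56 and 8.71 on days 0, 3, 6 and 9 (2.45). None of these 3 was higher on day 3 than on day 0, and each read close to its day 6 value on day 9. Pmepa1, a TGF-beta target that dampens SMAD signalling, had another course: 10.87, 6.04, 8.37 and 9.42 on days 0, 3, 6 and 9, so day 6 (a difference of 2.33) was still below day 0. Vsig8, an immunoglobulin-domain surface protein, read 6.08, 9.79, 11.73 and 11.98 on days 0, 3, 6 and 9 (1.94). Igfbp2, which binds insulin-like growth factors, read 6.99, 7.90, 9.76 and 9.94 on days 0, 3, 6 and 9 (1.87). Aldh3a1, an aldehyde dehydrogenase of surface epithelia, read 8.14, 9.47, 11.22 and 11.53 on days 0, 3, 6 and 9 (1.75). In these 3 genes day 3 was already above day 0 and day 9 was highest.

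The others of the 20 largest lay between 1.46 and 1.84. Castor2, of the CASTOR family of mTORC1 regulators, differed by 1.84, Iffo2, an intermediate filament family protein, by 1.77, and Pi4k2a, a phosphatidylinositol kinase, by 1.72. The chemokine Cxcl3 differed by 1.71, the pseudokinase Trib1 by 1.70, and Nipbl, which loads cohesin onto DNA, by 1.69. Lrp6, a Wnt co-receptor, differed by 1.61, Mgll, which cleaves monoacylglycerols, by 1.58, and Pitx1, a homeodomain factor, by 1.57. Clip1, a microtubule plus-end protein, differed by 1.54, Pdlim5, an actin-associated scaffold, by 1.53, Bmpr2, a BMP receptor, by 1.46, and Tanc2, a synaptic scaffold, by 1.46. Bod1l1, Car2 and Lgr5 were at or below the brightest control on day 3 and have only bounds: day 6 was at least 2.69-fold, 2.57-fold and 1.34-fold higher. Car2 is carbonic anhydrase, and Lgr5 is a stem cell receptor for R-spondins.

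Several of the genes lower on day 6 peaked on day 3. Fads1, a desaturase of polyunsaturated fatty acids, read 5.61, 7.88, 5.202 and 3.72 on days 0, 3, 6 and 9, a difference of -2.68, and its relative Fads3, 1 protein-coding gene away, read 9.17, 9.04, 7.70 and 7.79 on days 0, 3, 6 and 9 (-1.34). Gdf15, a secreted stress-induced factor, read 6.10, 9.35, 7.10 and 5.82 on days 0, 3, 6 and 9 (-2.25). Snap25, a membrane fusion protein of neurons, read 5.97, 8.39, 6.46 and 5.30 on days 0, 3, 6 and 9 (-1.93). Those values put Gdf15 and Snap25 above day 0 on day 3 and below day 0 by day 9. Rcan2, an inhibitor of calcineurin, differed by -1.89, Nptx1, a neuronal pentraxin, by -1.79, and Serpine2, a serine protease inhibitor, by -1.86. Nptx1 was at background on days 0 and 9, at 4.04 and 3.50, and read 7.66 on day 3 and 5.87 on day 6. Another group was lower on day 3 than on day 0 and lower again on day 6. It held the intermediate filament gene Vim, 10.58, 8.53, 6.51 and 6.95 on days 0, 3, 6 and 9 (-2.02), the granulocyte factor Csf3, 9.84, 8.37, 6.30 and 6.06 on days 0, 3, 6 and 9 (-2.06), and Emp3, a membrane protein, 11.35, 9.35, 7.79 and 8.47 on days 0, 3, 6 and 9 (-1.56). Of the other large differences, Dok1, an adaptor of receptor tyrosine kinases, differed by -2.02, Tpd52l1, a vesicle traffic protein, by -1.92, Snx10, an endosomal sorting protein, by -1.83, and Calml4, a calmodulin-like protein, by -1.60. The receptor gene Tnfrsf26 was at or below the control on day 6 and was at least 4.54-fold lower there than on day 3. Further bounds were at least 2.03-fold for Mrm1, 1.94-fold for Lgals3bp, 1.84-fold for Slc14a1, 1.60-fold for Pts and 1.57-fold for Ada, all lower on day 6.

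**Figure D3:**
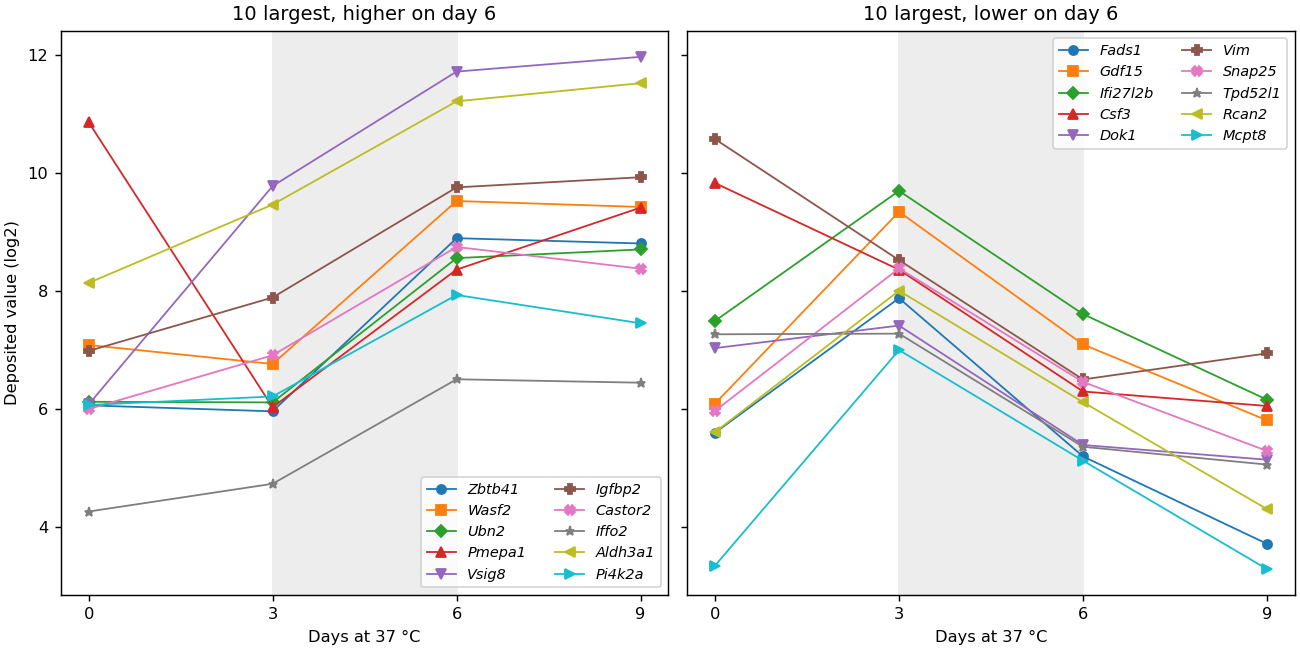
Deposited log2 values (vertical axis) against days at 37 °C (horizontal axis) of the 10 genes with the largest difference upward (left) and downward (right) from day 3 to day 6, 1 array per day, with that span shaded. On the left Zbtb41, Wasf2 and Ubn2 stay low until day 3 and step up by 2.45 to 2.94, while Pmepa1 starts at 10.87 and dips to 6.04 on day 3; on the right Gdf15 and Snap25 peak on day 3, and Csf3 and Vim are highest on day 0.

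Keratins of the suprabasal layers lay mostly above the median gene, 4 of 5, on day 6. Of these 5 suprabasal keratins, 2 were higher and 0 lower, against 0.829% and 1.60% of all genes. Their median difference was 0.73, against -0.13 for all genes. Krt78 read 5.06, 7.86, 9.23 and 8.59 on days 0, 3, 6 and 9 (1.37), and Krt13, the keratin of internal stratified epithelia, read 9.68, 12.23, 13.55 and 13.91 on days 0, 3, 6 and 9 (1.32). Krt1 differed by 0.73 and Krt23 by 0.56, while Krt10, the usual partner of Krt1, read 7.21, 9.40, 8.96 and 8.78 on days 0, 3, 6 and 9, a difference of -0.44. Krt10 was the 1 below the median gene. Of 6 basal, wound and simple epithelial keratins, 1 was higher and 0 lower (median 0.21, or -0.04 with spike-in centring). Krt15, a basal keratin, read 9.11, 11.06, 12.23 and 11.78 on days 0, 3, 6 and 9 (1.18) and lies next to Krt13 in the genome with no protein-coding gene between them. Krt5 differed by 0.14 and Krt14 by 0.11, and the simple epithelial keratins Krt8 and Krt20 by -0.62 and 0.94. Krt79, a keratin outside these lists that lies next to Krt78, read 4.63, 6.11, 4.82 and 4.49 on days 0, 3, 6 and 9, a difference of -1.29; it was named after its value was seen.

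Among 26 cornified envelope genes, 1 was higher and 0 lower, but 24 were above the median gene and the list's median was 0.30. Sprr3, a small proline-rich envelope precursor, read 9.46, 10.25, 11.25 and 12.14 on days 0, 3, 6 and 9 (1.005). Sult2b1, a cholesterol sulfotransferase, differed by 0.83, Calml3 by 0.67, Spink5, a kallikrein inhibitor, by 0.63 and Tgm3, a transglutaminase, by 0.60. Loricrin, a main envelope protein, read 10.38, 12.42, 12.70 and 13.29 on days 0, 3, 6 and 9 (0.28), and the transglutaminase Tgm1 read 11.51, 12.87, 12.85 and 12.82 on days 0, 3, 6 and 9 (-0.03), so both differed more from day 0 to day 3 than in this step. The list's median was 0.88 in the earlier step and 0.03 in the later one, which share arrays with this step. Galectins and mucosal surface glycoproteins had 2 of 12 genes higher and 0 lower (median 0.11, or -0.15 with spike-in centring), namely Vsig8 and Lgals7, a galectin of stratified epithelia, which read 6.34, 10.39, 11.53 and 11.36 on days 0, 3, 6 and 9 (1.14). Vsig10l differed by 0.69.

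Transcription factors of stratified epithelial differentiation had 3 of 20 genes higher and 0 lower, against 0.829% and 1.60% of all genes. They had a median of 0.42 and 18 genes above the median gene. Pitx1 read 8.32, 9.30, 10.86 and 10.98 on days 0, 3, 6 and 9. Rora, an orphan nuclear receptor, read 4.92, 5.60, 6.95 and 7.17 on days 0, 3, 6 and 9 (1.36), and Cebpa, which drives exit from the cell cycle in several lineages, read 7.14, 8.67, 9.85 and 10.13 on days 0, 3, 6 and 9 (1.18). Sox7 differed by 0.97 and Grhl1, a grainyhead factor of desmosome genes, by 0.73. Among reference genes, Klf4 differed by 0.15 and Tp63, the master factor of stratified epithelium, by -0.07. Notch1, a receptor that promotes the suprabasal switch, differed by 0.66, in a Notch list of 14 genes with 0 higher, 0 lower and a median of 0.06.

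Barrier lipid enzymes had 0 of 14 genes past 2-fold in either direction, with a median of 0.34 and 12 above the median gene. Ugcg, which makes glucosylceramide, read 7.13 on day 3 and 8.09 on day 6 (0.96). Fa2h, a fatty acid hydroxylase, differed by 0.81, Pnpla1, an acylceramide enzyme, by 0.65, Elovl1, an elongase, by 0.48 and Aloxe3, an epidermal lipoxygenase, by 0.44. Surface proteases and inhibitors had 1 of 15 genes higher and 0 lower (median 0.33). That gene was Prss8, the membrane-anchored protease prostasin, at 7.55, 8.26, 9.43 and 9.61 on days 0, 3, 6 and 9 (1.17). The kallikreins Klk8 and Klk10 differed by 0.996 and 0.73, and Fetub, a protease inhibitor, by 0.64. Retinoid genes had 1 of 14 higher and 0 lower (median 0.17, or -0.09 with spike-in centring). It was Aldh1a1, a retinaldehyde dehydrogenase, at 6.61, 7.58, 8.82 and 10.12 on days 0, 3, 6 and 9 (1.24).

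On their chosen probe sets, junction and adhesion genes had 0 members past 2-fold. Of 11 desmosome genes 9 were above the median gene, and the median was 0.32. The desmosomal cadherin Dsg1 differed by 0.76, the plakoglobin gene Jup by 0.72 and corneodesmosin, Cdsn, by 0.56. On other probe sets Dsg1 differed by 1.51 and 0.61. Against these, the plakophilin Pkp2 differed by -0.84 and the desmocollin Dsc1 by -0.49. The 20 tight and adherens junction genes had 0 higher and 0 lower (median 0.19, or -0.07 with spike-in centring), with Tjp3 at -0.64, Cldn1 at 0.42, Tjp1 at 0.42 and Cgn at 0.38. Cdh1, E-cadherin, differed by 0.23. The 17 basement membrane adhesion genes had 0 past 2-fold and a median of -0.13, the same as all genes. Within them the laminin chains Lamb1, Lamb3 and Lama5 differed by -0.74, -0.59 and -0.55, the integrin Itgb1 by -0.57, and the hemidesmosome collagen Col17a1 by 0.49.

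**Figure D4:**
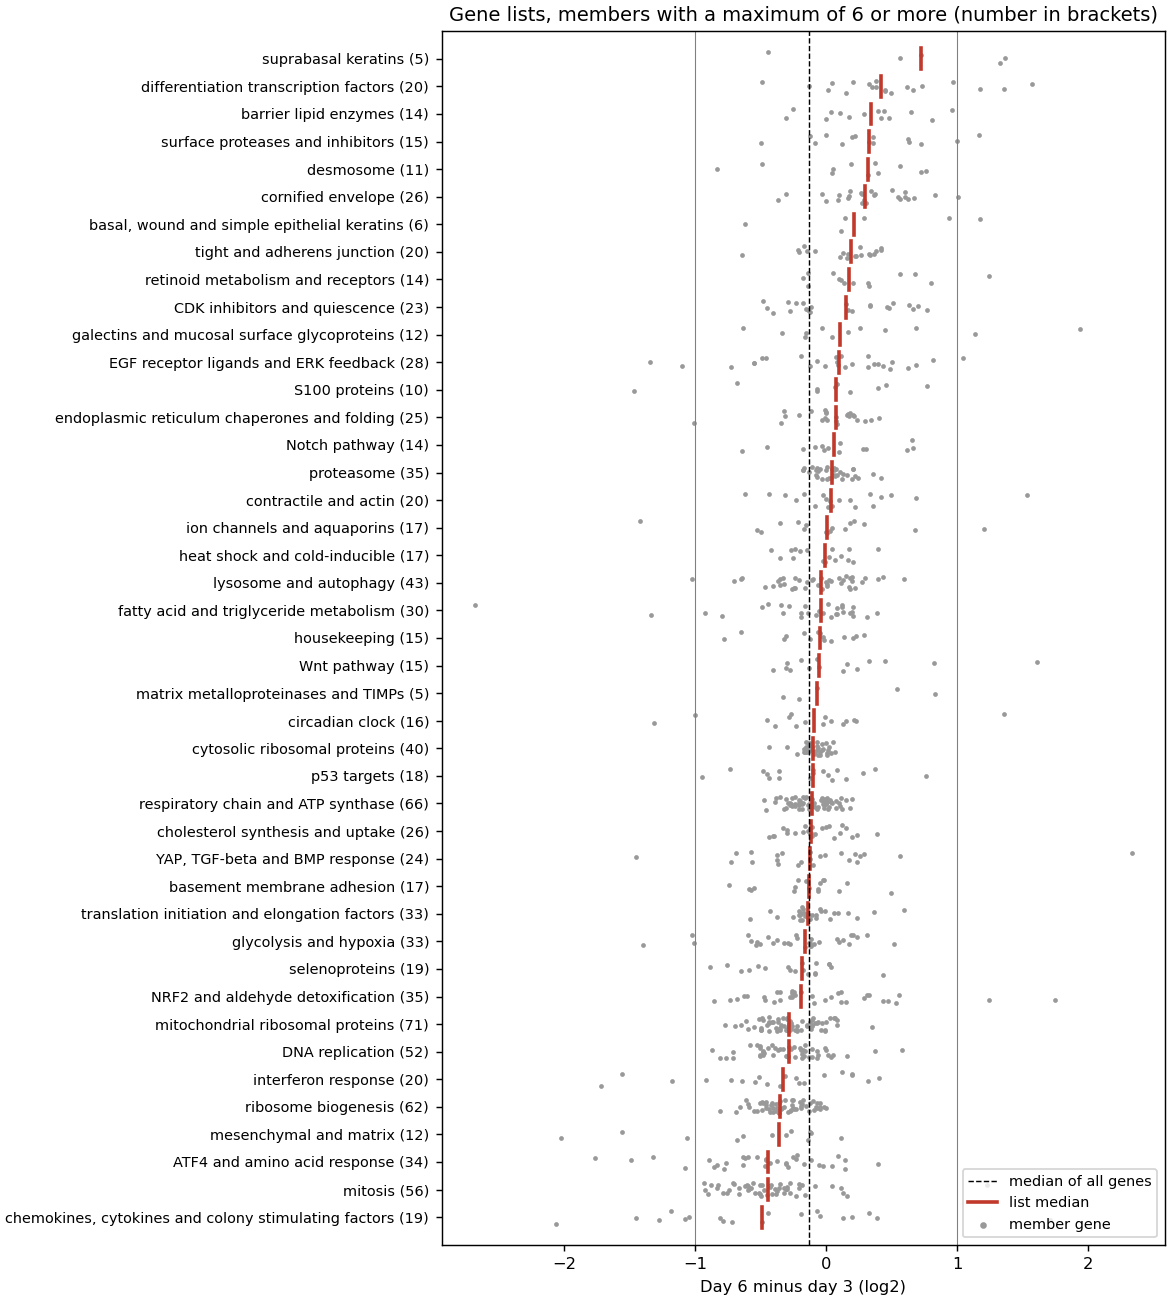
Day 6 minus day 3 (horizontal axis, log2) of the members of each gene list (vertical axis, number of members in brackets), 1 array per day; grey points are genes, red bars are list medians, and the dashed line is the median of all genes at -0.13. The highest median is that of the suprabasal keratins (0.73), and the lowest are those of chemokines and cytokines (-0.49, but -0.079 with no floor), mitosis (-0.45) and the ATF4 list (-0.44).

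Of 12 mesenchymal genes, 3 were lower and 0 higher, against 1.60% and 0.829% of all genes, with a median of -0.36 and 9 below the median gene. With no floor the list's median was -0.14, or -0.092 relative to the median gene. Besides Vim and Emp3 they held Fn1, fibronectin, at 11.92, 10.88, 9.82 and 9.66 on days 0, 3, 6 and 9 (-1.06). S100a4 differed by -0.68. Lgals1, a galectin of mesenchymal cells, read 6.28, 4.995, 4.36 and 4.27 on days 0, 3, 6 and 9, with day 6 below the brightest control. Most fibroblast markers were at background on both days, as given above. Of 24 YAP, TGF-beta and BMP response genes 1 was higher (Pmepa1) and 1 lower, with a median of -0.12. The lower gene was Ltbp1, which holds latent TGF-beta in the matrix, at 10.03, 9.77, 8.32 and 7.77 on days 0, 3, 6 and 9 (-1.45). Bambi, a BMP pseudoreceptor, differed by -0.73, Smad3 by -0.69 and Ccn1 by -0.58. The 20 contractile genes had Pdlim5 higher and 0 lower (median 0.03), with Acta2 at 0.69 and Vcl at -0.62. The 5 metalloproteinases and inhibitors had 0 past 2-fold and a median of -0.07, which was 0.20 with no floor and 0.45 when each gene was the mean of its probe sets. Timp2, an inhibitor, differed by -0.07, but by 1.54 on its other probe set, which read 6.37 on day 3 and 7.92 on day 6. Mmp14 differed by 0.54, and Mmp13 was below the brightest control on both days.

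Signal proteins went both ways. Of 19 chemokines and cytokines, 6 were lower and 1 higher, against 1.60% and 0.829% of all genes, and the median was -0.49. The median was -0.23 with a floor of 5 and -0.079 with no floor. Csf3 is given above. Cxcl10, an interferon-induced chemokine, read 4.98, 6.75, 5.29 and 4.62 on days 0, 3, 6 and 9 (-1.45). Tslp, an epithelial alarmin, differed by -1.27 and Il24, a cytokine of the interleukin family, by -1.08. The neutrophil chemokines Cxcl1 and Cxcl3, which have 1 protein-coding gene between them, differed in opposite directions. Cxcl1 read 10.52, 7.46, 6.27 and 7.75 on days 0, 3, 6 and 9 (-1.19), and Cxcl3 read 8.58, 6.99, 8.70 and 9.50 on days 0, 3, 6 and 9 (1.71). Both were lower on day 3 than on day 0, and Cxcl3 was back above its day 0 value by day 6. Ccl2, a monocyte chemokine, read 10.76, 5.001, 3.96 and 6.32 on days 0, 3, 6 and 9, and its day 6 value was below the brightest control. Against that control, at 4.51 on day 6, the day 3 value of Ccl2 was less than 2-fold higher. Its place among the 6 lower genes is therefore not bounded at 2-fold.

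The interferon list had 3 of 20 genes lower and 0 higher, against 1.60% and 0.829% of all genes. It had a median of -0.33 and 14 genes below the median gene. Gbp2, a guanylate-binding GTPase, read 10.35, 7.64, 6.08 and 5.91 on days 0, 3, 6 and 9 (-1.56). Its neighbour Gbp4 read 7.73, 4.98, 3.26 and 3.92 on days 0, 3, 6 and 9, with day 6 below the brightest control. Against that control, at 4.51 on day 6, the day 3 value of Gbp4 was less than 2-fold higher. So 1 of the 3 lower genes is not bounded at 2-fold. Psmb9, an immunoproteasome subunit, read 8.24, 7.29, 6.11 and 6.03 on days 0, 3, 6 and 9 (-1.18). The immunoproteasome subunit Psmb8 differed by -0.91, the peptide transporter Tap1 by -0.73 and the tetherin gene Bst2 by -0.64. For Gbp2 and Psmb9 each later array read lower than the one before. Other genes related to interferon responses peaked on day 3: Ifi27l2b at 7.50, 9.70, 7.62 and 6.17 on days 0, 3, 6 and 9 (-2.09), Ifitm1 at 6.04, 7.60, 5.85 and 6.005 on days 0, 3, 6 and 9 (-1.74) and Slfn4 at 6.66, 8.52, 6.91 and 5.66 on days 0, 3, 6 and 9 (-1.61). Mx2, an antiviral GTPase, differed by -0.31.

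The promoters of Gbp2 and Gbp4 are shown because these adjacent genes were both counted as lower and both hold an interferon-stimulated response element. The element was searched as GAAA repeated after a gap of 2 bases, on both strands, in the window from 250 bases before to 50 after each RefSeq start. It was found in 11 of the 18 interferon-list promoters that matched by gene identifier (61.1%), in 205 of 7424 promoters of genes above the floor (2.76%) and in 1312 of all 33469 promoters (3.92%). Capitals mark the match, coordinates are those of the rat build GRCr8, the Gbp2 window is chr2:234005477-234005776 on the plus strand, and the Gbp4 window is chr2:233978236-233978535 on the plus strand.
Gbp2: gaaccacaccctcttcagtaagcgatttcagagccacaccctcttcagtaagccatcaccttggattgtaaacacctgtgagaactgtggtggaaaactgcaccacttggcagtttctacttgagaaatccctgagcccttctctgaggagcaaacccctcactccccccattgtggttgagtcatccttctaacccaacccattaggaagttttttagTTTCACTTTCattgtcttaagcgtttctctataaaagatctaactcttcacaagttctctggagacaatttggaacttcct
Gbp4: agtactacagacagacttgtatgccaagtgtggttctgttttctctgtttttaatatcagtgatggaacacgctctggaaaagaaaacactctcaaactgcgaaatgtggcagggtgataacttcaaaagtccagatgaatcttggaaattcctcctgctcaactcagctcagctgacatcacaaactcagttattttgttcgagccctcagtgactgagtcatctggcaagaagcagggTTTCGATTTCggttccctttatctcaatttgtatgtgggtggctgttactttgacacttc
The matches begin 31 bases before the start of Gbp2 and 10 bases before that of Gbp4. A match is a description of these letters, and binding was not measured. Psmb9, also lower on day 6, had no match in its window. That window overlaps the one of Tap1 on the opposite strand, where a match begins 121 bases before the Tap1 start. Among list genes with a match, Irf7 differed by 0.12, Isg20 by 0.20, Eif2ak2 by -0.01 and B2m by -0.17. The element was therefore not limited to lower genes.

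Of 34 genes of the ATF4 and amino acid response, 4 were lower and 0 higher on day 6, against 1.60% and 0.829% of all genes. The median was -0.44, and 26 were below the median gene. The list's median was 1.04 in the step before and -0.55 in the step after, which share arrays with this step. Cth, which makes cysteine from cystathionine, read 7.42, 8.72, 7.24 and 6.43 on days 0, 3, 6 and 9 (-1.49). Slc7a11, the cystine importer, read 7.11, 9.96, 8.63 and 7.70 on days 0, 3, 6 and 9 (-1.32), and Slc7a5, a transporter of large neutral amino acids, read 9.42, 10.50, 9.42 and 8.28 on days 0, 3, 6 and 9 (-1.08). Vldlr, a lipoprotein receptor, read 4.10, 6.93, 5.17 and 3.86 on days 0, 3, 6 and 9 (-1.76). Each of the 4 was higher on day 3 than on day 0 and at or below its day 6 value on day 9. Trib3, a pseudokinase that feeds back on this pathway, differed by -0.90, Mthfd2, a mitochondrial folate enzyme, by -0.85, the serine and alanine carrier Slc1a4 by -0.83 and the serine synthesis enzyme Phgdh by -0.78. On its other probe sets Trib3 differed by -1.02 and -1.41, so past 2-fold. Asns, asparagine synthetase, read 11.79 on day 3 and 11.73 on day 6, and Atf4 itself differed by -0.12. Endoplasmic reticulum chaperones had 1 of 25 genes lower and 0 higher (median 0.07), the oxidase Ero1a at -1.01, with Hspa5 at 0.40 and Calr at 0.34.

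The promoters of Trib3 and Slc7a1 are shown as examples of this list that hold the element read by ATF4 with C/EBP factors. Slc7a1, an importer of cationic amino acids, differed by -0.64. The element was searched as TGATGNAA and TTNCATCA, both strands, and was found in 7 of 31 promoters of the list (22.6%), in 136 of 7424 promoters of genes above the floor (1.83%) and in 1332 of all 33469 (3.98%). The capitals mark the match in GRCr8 sequence, the Trib3 window is chr3:161275484-161275783 on the minus strand, and the Slc7a1 window is chr12:11664238-11664537 on the plus strand.
Trib3: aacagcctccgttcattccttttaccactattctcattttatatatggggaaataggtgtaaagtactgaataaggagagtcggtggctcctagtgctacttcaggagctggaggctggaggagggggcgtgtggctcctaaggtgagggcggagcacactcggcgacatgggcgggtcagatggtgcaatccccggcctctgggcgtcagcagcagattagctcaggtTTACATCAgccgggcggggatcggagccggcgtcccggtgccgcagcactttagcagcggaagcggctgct
Slc7a1: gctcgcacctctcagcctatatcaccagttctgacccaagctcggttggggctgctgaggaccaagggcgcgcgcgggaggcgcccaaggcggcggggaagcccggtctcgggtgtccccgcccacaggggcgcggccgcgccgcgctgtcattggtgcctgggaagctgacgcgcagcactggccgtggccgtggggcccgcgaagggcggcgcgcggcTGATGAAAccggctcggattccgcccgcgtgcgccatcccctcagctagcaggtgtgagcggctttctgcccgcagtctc
The matches begin 21 bases before the Trib3 start and 30 bases before the Slc7a1 start. Cth, Slc7a11, Slc7a5, Vldlr and Gdf15 had no match in their windows, which says only that these letters are not there.

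Lists of division and biosynthesis had 0 genes 2-fold lower, while most of their members lay below the median gene. Of 56 mitosis genes, 50 were below it and the median was -0.45. Hmmr, a spindle protein, read 8.24, 8.77, 7.83 and 7.68 on days 0, 3, 6 and 9 (-0.94). Cdca8, of the chromosomal passenger complex, differed by -0.92, the checkpoint kinase Bub1 by -0.90, the kinesin Kif15 by -0.88 and Ccnb1, a mitotic cyclin, by -0.60. The 1 higher gene was Smc4, a condensin subunit, at 1.23, or 0.50 as the mean over its probe sets. Mki67, a proliferation marker, differed by 0.12. DNA replication had 0 of 52 past 2-fold, a median of -0.29 and 39 below the median gene, with the origin proteins Orc1 at -0.87 and Orc2 at -0.71, the polymerase Pold1 at -0.81, the helicase factor Cdc45 at -0.77 and the clamp loader Rfc5 at -0.71.

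Ribosome biogenesis had 0 of 62 genes past 2-fold, a median of -0.35 and 51 below the median gene. Rrp12 differed by -0.81, the helicase Ddx10 by -0.69, Wdr75 by -0.65, Rcl1 by -0.61, the polymerase subunit Polr1b by -0.59, and Myc, which drives this programme, by -0.55. Mitochondrial ribosomal proteins had a median of -0.29, with 51 of 71 below the median gene and 0 past 2-fold. Proteins of the cytosolic ribosome (40 genes, median -0.10), the respiratory chain (66 genes, -0.11), translation factors (33 genes, -0.14), heat shock genes (17, -0.01) and housekeeping genes (15, -0.05) each had 0 members past 2-fold. The proteasome had 0 of 35 past 2-fold, yet 32 were above the median gene, at a median of 0.05, or -0.21 with spike-in centring. Inhibitors of cyclin-dependent kinases and quiescence genes had 0 of 23 past 2-fold (median 0.15, or -0.10 with spike-in centring), with Foxo1 at 0.77, Cdkn2b at 0.70, Mxd1 at 0.66 and Ccng2 at 0.63. Targets of p53 had 0 of 18 past 2-fold (median -0.10), with Pidd1 at -0.94, Tp53inp1 at 0.76 and Gadd45a at -0.73.

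Genes of EGF signalling differed in both directions. Of 28 genes of EGF receptor ligands and ERK feedback, 2 were lower and 1 higher, and the median was 0.10. Etv5, a transcription factor induced by ERK, read 7.54, 8.28, 6.93 and 6.09 on days 0, 3, 6 and 9 (-1.34), and Spry2, an inhibitor of receptor tyrosine kinase signalling, read 9.48, 9.55, 8.45 and 7.61 on days 0, 3, 6 and 9 (-1.10). Junb, an early-response Jun family factor, read 8.66, 9.04, 10.08 and 10.43 on days 0, 3, 6 and 9 (1.04). Each went further the same way on day 9. Spry1 differed by -0.72, Fos by 0.69 and the receptor Erbb3 by 0.81. Fgf9, a fibroblast growth factor named after its value was seen, read 6.07, 7.94, 6.54 and 5.71 on days 0, 3, 6 and 9 (-1.40). The Wnt list had Lrp6 higher of 15 genes and 0 lower (median -0.06), with Wnt4 at 0.82.

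Metabolic and other lists had between 0 and 3 genes past 2-fold. Fatty acid and triglyceride genes had 2 of 30 lower, Fads1 and Fads3, and 0 higher (median -0.04), with the acyl-CoA synthetase Acsl4 at -0.93. Cholesterol genes had 0 of 26 past 2-fold (median -0.11). Glycolysis and hypoxia genes had 3 of 33 lower and 0 higher (median -0.16): Pfkfb3, a regulator of glycolysis, at -1.40, Bnip3, a mitophagy receptor, at -1.02, and Ero1a. The NRF2 list had 2 of 35 higher, Aldh3a1 and Aldh1a1, and 0 lower (median -0.19), with Akr1b8 at -0.86. Of 10 S100 genes 1 was lower (median 0.08): S100g, a calcium buffer, at 8.04, 11.99, 10.53 and 8.84 on days 0, 3, 6 and 9 (-1.47). The clock list had Rora higher and 2 of 16 lower (median -0.09), Npas2 at -1.32 and Bhlhe41 at -1.003. Among 17 channels (median 0.00), the potassium channel Kcnn4 read 8.68, 8.35, 6.92 and 6.97 on days 0, 3, 6 and 9 (-1.42), and Kcnj12 read 3.85, 6.72, 7.92 and 7.28 on days 0, 3, 6 and 9 (1.203). Selenoprotein genes had 0 of 19 past 2-fold (median -0.19), with Gpx1 at -0.89, and lysosome genes 1 of 43 lower (median -0.04).

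Some genes usually read in other cell types were among the lower ones, and their values stand beside the marker counts above. Mcpt8, a mast cell and basophil protease, read 3.35, 7.01, 5.13 and 3.29 on days 0, 3, 6 and 9 (-1.88), with day 0 and day 9 at background. Its relative Mcpt10 differed by -1.15, and Gzmb, a granzyme of lymphocytes, read 11.37, 11.70, 10.53 and 10.51 on days 0, 3, 6 and 9 (-1.18); both were named after their values were seen. Some other leukocyte genes did not share that level: Cd3e read 3.13 on day 3 and 3.10 on day 6, and Cpa3, a mast cell protease, read 3.25 and 3.30, all below the control. The 3 leukocyte markers above the floor, Mcpt8 among them, all differed downward, by -0.27 to -1.88 (median -0.495). Myh1, a fast skeletal myosin, read 9.94, 10.28, 9.27 and 8.84 on days 0, 3, 6 and 9 (-1.01). Of its other probe sets, 3 differed by -0.79 to -1.27 and 1 by 0.78, from 8.52 to 9.29. Among other muscle genes, Myh2 read 2.49 and 2.63, Ckm 3.98 and 4.08 and Acta1 3.02 and 2.86 on days 3 and 6. Over the whole lists, the mean log2 level was 4.47 on day 3 and 4.36 on day 6 for leukocyte markers, 4.16 and 4.09 for skeletal muscle markers, 5.79 and 5.98 for nerve and glia markers, and 4.67 and 4.91 for melanocyte and Merkel cell markers. The last list's 1 member above the floor was Krt20, a keratin of Merkel cells too, at 7.61 on day 3 and 8.55 on day 6. The 4 nerve and glia markers above the floor all differed upward, by 0.135 to 0.73 (median 0.39). The part of such cells in these differences was not tested.

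Probe sets of the same gene were compared within these 2 arrays, so they share any difference between the arrays. Genes past 2-fold had 51 other probe sets with a maximum of 6 or more, belonging to 34 genes. Of these, 44 (86.3%) differed in the same direction and 19 (37.3%) by 2-fold or more. Of the 31 belonging to higher genes, 26 (83.9%) went the same way, 10 (32.3%) by 2-fold or more, and 7 were under 1.2-fold. For lower genes the counts were 18 (90.0%), 9 (45.0%) and 2 of 20. Among all genes 2.43% were 2-fold or more apart. The median gene was at -0.13, so lower was the commoner direction for any gene. The neutrophil chemokine Cxcl3 gave 1.71 with others at 1.52 and 1.81, and Clip1 gave 1.54 with another at 1.88. Vldlr gave -1.76 and -1.45, and Rcan2 gave -1.89 and -1.46. Other genes were less even. Nipbl gave 1.69 on the chosen probe set and 2.77 and 0.05 on others. Zfp292, a zinc finger protein, gave 1.24, with others from -0.11 to 0.74, and Pdlim5 gave 1.53 and -0.40. Pfkfb3 gave -1.40 and 0.12, and Ero1a -1.01 and -0.24, so both of these calls rest on the chosen probe set. Myh1 had 1 of 4 others in the opposite direction, as given above. The value for Zbtb41, Wasf2 or Ubn2 has no other probe set above the floor beside it. The other probe set of Ubn2 read 3.93 on day 3 and 4.32 on day 6, below the brightest control on both days.

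**Figure D5:**
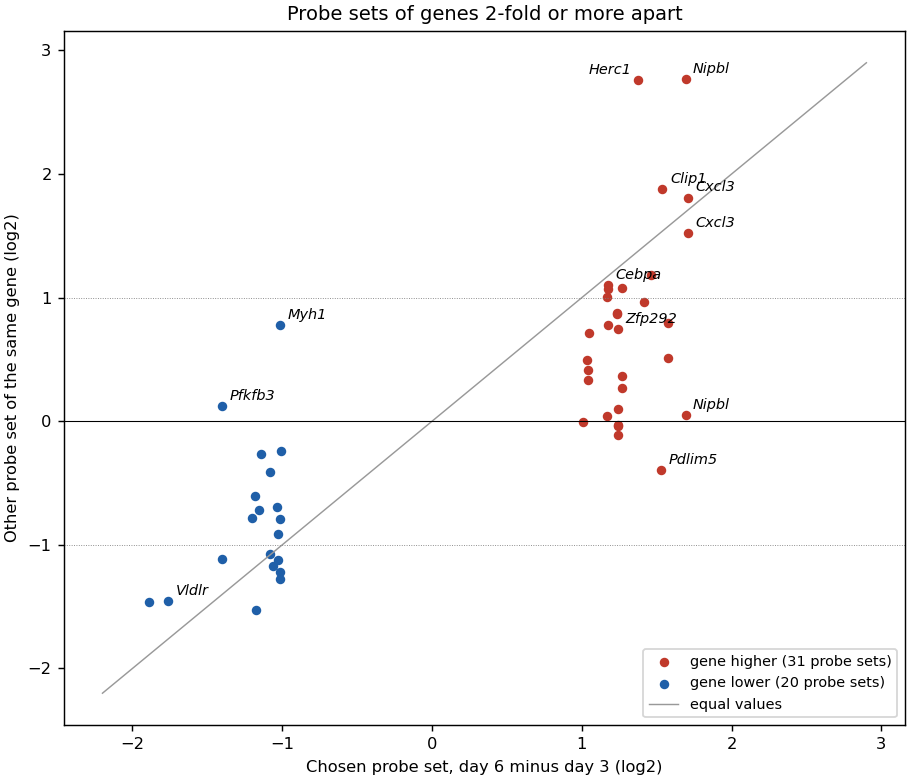
Day 6 minus day 3 (log2) of other probe sets with a maximum of 6 or more (vertical axis) against the probe set chosen for the gene (horizontal axis), for genes 2-fold or more higher (red, 31 probe sets) or lower (blue, 20), 1 array per day; the grey line marks equal values and the dotted lines 2-fold. Of the 51 points 44 lie on the same side of 0 as the chosen probe set, and Nipbl has points at 2.77 and 0.05.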

How the data were processed

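The authors deposited log2 values per probe set, made with RMA per the submitters' processing notes. The program that ran it and the settings are not given in what was read here. RMA gives all arrays nearly the same distribution, so a shift of most genes in 1 direction is largely removed and RNA per cell is not measured. Base 2 was taken from the spread of the values, 1.55 to 14.23. The extract protocol gives RNA integrity numbers between 9.5 and 10. Groups came from the time point in the labels, and 0 columns of sample values were left unused. Of 31099 probe sets, 57 were controls, 20832 had 1 symbol in the platform annotation, 436 several and 9831 none. Only those with 1 symbol named a gene.

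From these values the day 6 minus day 3 difference was taken per gene and counted at 2-fold. A gene at or below the brightest of 27 bacterial controls on 1 array was given a bound, the other array's value against that control. With 1 array per day no test was run. The counting rule was also run on simulated data with known differences, and that result is not given here.

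Named genes were the 20 largest differences and the 6 largest bounds in each direction, up to 5 largest members of each of 43 lists, the genes at the thresholds and a set of reference genes. Members, lists and rules were chosen with earlier results of these data known. Asns, Atf4, B2m, Bst2, Ccl2, Ccnb1, Eif2ak2, Fos, Il24, Irf7, Isg20, Mthfd2, Mx2, Phgdh, Slc1a4, Slc7a1, Zfp292, the marker genes of other cell types given with values, both motifs, the 4 printed promoters and the genes so marked in the text were chosen after values were seen. Promoters came from RefSeq (GRCr8), and gene order from the RefSeq table.

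Alternatives were other floors, probe set rules, scalings and thresholds. The tools were matplotlib 3.10.9, scipy 1.17.1, pandas 2.3.3 and numpy 2.4.6 under Python 3.11.15.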

Additional observations from a re-analysis of the deposited data

How the results depend on the processing

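No paired analysis was possible because each day had 1 array, and for the same reason no replicate could be left out. The 73 higher and 141 lower genes (65.9% lower) became 50 and 70 (58.3%) with a floor of 8, 106 and 88 (45.4%) with arrays centred on the median gene, 60 and 191 (76.1%) on the housekeeping list, 36 and 402 (91.8%) on the spike-ins, and 101 and 89 (46.8%) after a further quantile normalization. They were 307 and 805 (72.4%) at 1.5-fold and 16 and 21 (56.8%) at 3-fold. With the day 9 array in place of day 6, an alternative chosen after seeing the data, they were 153 and 322 (67.8%). These scalings moved the median gene by 0.14, -0.08, -0.26 and 0.11. With spike-in centring 12 list medians turned from above to below 0. Of the named genes past 2-fold, 0 changed direction in any alternative that kept day 6. For the 3 centrings that count was fixed in advance, because shifts of 0.14, -0.08 and -0.26 cannot reverse a 2-fold difference. Setting values below the floor to it could not reverse one either. Relative to the median of all genes, 20 of 43 lists lay 0.2 or more away, 14 above and 6 below. Their values that moved by the most were as follows. With no floor they were 0.16 for basal and simple keratins, 0.28 for barrier lipids, 0.21 for tight junctions, -0.092 for mesenchymal genes, -0.03 for chemokines, -0.12 for interferon genes, 0.12 for endoplasmic reticulum chaperones, 0.049 for S100 genes and 0.14 for galectins. A floor of 5 gave -0.12 for chemokines, -0.12 for interferon genes and 0.12 for galectins, and a floor of 8 gave -0.61 and -0.30 for chemokines and interferon genes. Without probe sets marked for cross-hybridisation, mesenchymal genes gave -0.40. Quantile normalization gave 0.21 for basal and simple keratins, 0.13 for chaperones, 0.16 for quiescence genes and 0.13 for galectins. Setting values below the floor to it gave -0.069 for chemokines and 0.13 for galectins. The day 9 array gave 0.20 for tight junctions, -0.55 for mesenchymal, -0.32 for interferon, -0.051 for ribosome biogenesis, -0.88 for ATF4 genes and, reversed, -0.071 for EGF and ERK feedback. The mean over members gave -0.47 for mesenchymal genes, 0.10 for S100 genes and 0.41 for galectins. The cause was not tested for any of these. Signal over background limits the 10 genes past 2-fold that were at or below the brightest control on 1 of the days.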
